A study of Mus musculus with 8 samples.

Results

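The comparison described here sets the 3 arrays of RANKL-treated cultures of day 6 against the single array of the M-CSF culture of that day, 4 of the study's 8 arrays. All were made from bone marrow cells of C57BL6/J mice, and every culture received 50 ng/ml of M-CSF. The 3 RANKL cultures also received 100 ng/ml of RANKL: M-CSF+RANKL had no insert named in its label, PSS1-WT expressed wild-type PSS1 and PSS1-LMS expressed a mutant PSS1, both from a retrovirus added on the day after the factors. Not stated in the labels are the use of an empty vector in the cultures with no named insert, the mutation that PSS1-LMS carries, the species of the inserts and the number of animals. Each culture was 1 array. The 3 RANKL arrays therefore differ in their insert and are not replicates of a condition, the M-CSF side has no error, and no difference was tested. Values are given array by array; a fold is the mean log2 difference of the 3 RANKL arrays from the M-CSF array, taken back to the linear scale, and an SD (n = 3) is the spread between those cultures only. RNA came from whole cultures, so fewer cells of a type and less RNA per cell cannot be told apart.

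M-CSF is the growth factor that keeps macrophages and their precursors alive. RANKL binds the receptor RANK on such precursors and, through NF-kappaB, Fos and the transcription factor Nfatc1, turns them into osteoclasts. Osteoclasts are large cells formed by fusion that seal themselves to bone, pump acid through a vacuolar ATPase and secrete the protease cathepsin K to dissolve matrix. PSS1, the product of Ptdss1, makes the membrane lipid phosphatidylserine.

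Of 19505 genes on the array, 10366 were measured on day 6, meaning that their highest day 6 value reached 4.90 on the log2 scale, the median of all day 6 values. The 3 RANKL arrays lay on the same side of the M-CSF array for 8272 of them, 4178 higher (40.3%) and 4094 lower (39.5%). A gene was counted as higher or lower below only if each of the 3 arrays differed from M-CSF at least 2-fold. By that rule 1493 genes (14.4%) were higher and 1517 (14.6%) lower, and these shares are the background against which the gene groups below are read. The brightest background probe set, which matches no mouse transcript, read 7.13 in the M-CSF array and between 5.54 and 6.26 in the RANKL arrays. Signals at or under 7.13 are called within background. All 4 signals were within background for 3198 of the 10366 measured genes. Without these genes, 1318 were higher and 1314 lower. The shares of 14.4% and 14.6% are therefore smaller than the shares among brighter genes. The M-CSF signal was within background for 648 of the higher genes, and all 3 RANKL signals were for 649 of the lower genes. For these, and for lower genes with some RANKL signals within background, a fold is a lower bound, computed against 7.13 and written "at least"; where all 4 signals were within background, as for 175 higher and 203 lower genes, no fold is given. The top of the scale was 19.93, and fold differences of genes near it may be understated.

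**Figure D1:**
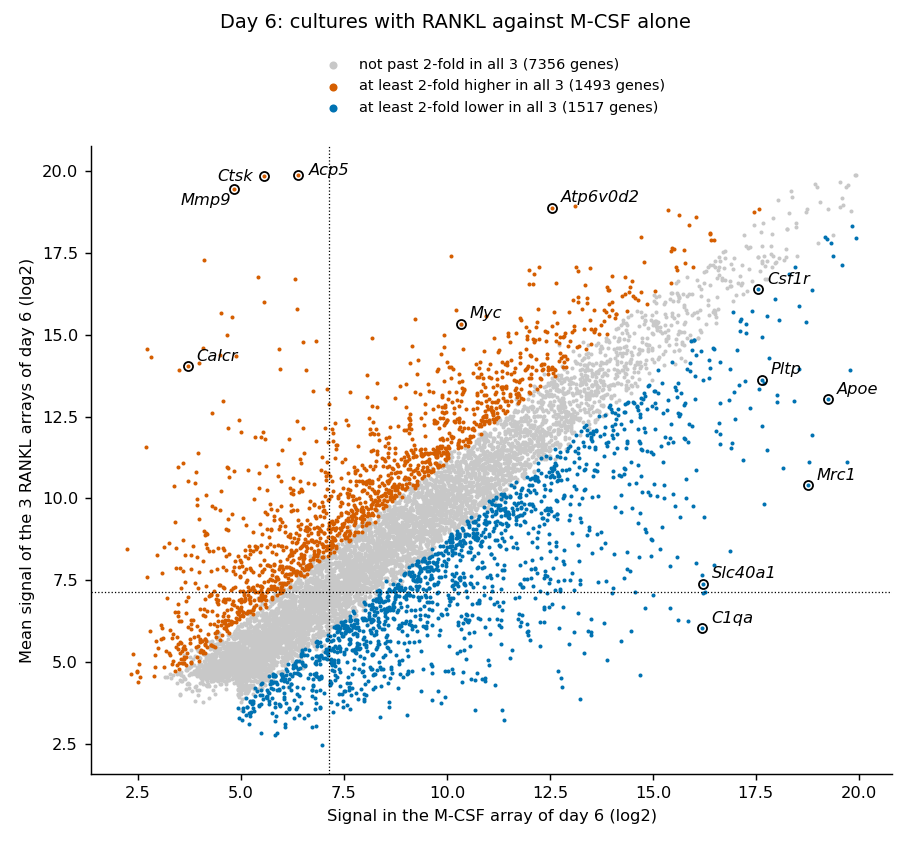
Each point is 1 of the 10366 measured genes, with its log2 signal in the M-CSF array of day 6 on the horizontal axis and the mean log2 signal of the 3 RANKL arrays on the vertical axis; dotted lines mark the brightest background probe set at 7.13. Orange points are the 1493 genes at least 2-fold higher in all 3 RANKL arrays and blue points the 1517 at least 2-fold lower, with Acp5, Ctsk and Mmp9 near the top of the scale at upper left and C1qa and Slc40a1 at lower right.

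The osteoclast markers were higher and the macrophage markers lower in every RANKL array. Acp5, the tartrate-resistant acid phosphatase of osteoclasts, read 6.38 in the M-CSF array, 19.92 in M-CSF+RANKL, 19.86 in PSS1-WT and 19.89 in PSS1-LMS, at least 6937-fold higher. Ctsk, cathepsin K, read 5.55 against 19.89, 19.84 and 19.90. Calcr, the calcitonin receptor of mature osteoclasts, read 3.71 against 13.76, 13.99 and 14.39, at least 121-fold higher. The mean log2 differences were 13.51 ± 0.03 (SD, n = 3) for Acp5, 14.32 ± 0.03 (SD, n = 3) for Ctsk and 10.34 ± 0.32 (SD, n = 3) for Calcr. The RANKL signals of Acp5 and Ctsk lay near the top of the scale, 19.93, so their spread may be understated. All 3 osteoclast markers were within background with M-CSF alone and far above it in every RANKL array. On the other side, C1qa, a chain of the complement starter C1q made by macrophages, read 16.19 with M-CSF and 6.29, 6.01 and 5.79 with RANKL, at least 534-fold lower. Apoe, the lipid carrier that macrophages secrete, read 19.26 against 13.05, 12.98 and 13.08, 74.6-fold lower. The mean log2 differences were -10.16 ± 0.25 (SD, n = 3) for C1qa and -6.22 ± 0.06 (SD, n = 3) for Apoe. C1qa was within background in all RANKL arrays, whereas Apoe remained well above it.

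Acp5 was among the brightest genes of the RANKL arrays. The stretch of its upstream sequence below is shown for the capitals, TCACATGA, which are the reverse strand of TCATGTGA, the M-box that factors of the Mitf and Tfe3 family can bind. It lies on chr9:22130652-22130719 of GRCm38.p6, minus strand, in one of the gene's listed promoters, with the last capital 84 bases before the start site.
Acp5: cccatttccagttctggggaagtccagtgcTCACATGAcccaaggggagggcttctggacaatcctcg
TCATGTGA, searched on both strands in the 250 bases before the start, was found in 0.754% of the measured genes with a promoter sequence, in 0.826% of the higher genes and in 1.21% of the lower genes. This motif was looked up after the values were seen.

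The machinery of bone resorption was almost uniformly higher. Of 14 measured genes for acid secretion, matrix breakdown and their control, 12 were higher and 0 lower, with a median difference of 6.40 on the log2 scale against 0.01 for all measured genes. Mmp9, a gelatinase, read 4.84 with M-CSF and 19.49, 19.42 and 19.46 with RANKL, at least 5135-fold higher. Car2, the carbonic anhydrase that supplies protons, read 4.52 against 15.94, 15.53 and 15.53. Mmp14, a membrane-bound matrix protease, read 6.32 against 16.73, 16.92 and 16.50. In each of these genes all 3 RANKL signals lay far above the M-CSF signal. Genes whose products are also used by macrophage lysosomes started from a clear M-CSF signal and differed less. The chloride exchanger gene Clcn7 was 10.1-fold higher, Tcirg1, the proton pump subunit of the ruffled border, 5.38-fold, and Ostm1, the partner of Clcn7, 2.77-fold. Cst3, the cathepsin inhibitor cystatin C, differed by 0.39 and Plekhm1, a vesicle adaptor, by 0.06; neither reached 2-fold.

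The vacuolar ATPase acidifies the resorption pit and, in other cells, lysosomes. Of its 16 measured subunit and accessory genes, 12 were higher and 1 lower, with a median difference of 2.13. Atp6v0d2, the subunit known for its part in osteoclast fusion, read 12.55 with M-CSF and 18.98, 18.70 and 18.98 with RANKL, 81.1-fold higher. Atp6v1d was 18.1-fold higher and Atp6v1b2 9.75-fold. The exception was Atp6v0a1, an isoform of the membrane subunit that Tcirg1 also encodes, which read 16.64 with M-CSF and 11.13, 11.81 and 12.03 with RANKL, 31.6-fold lower. The pair of membrane subunit isoforms thus lay on opposite sides: Tcirg1 read 14.79 with M-CSF and 17.50, 17.03 and 17.13 with RANKL. Each of the measured subunit and accessory genes was above background in the M-CSF array, unlike many of the resorption genes.

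Genes for cell fusion and adhesion were split. Of 11 measured, 6 were higher and 4 lower, with a median of 1.93. Dcstamp and Ocstamp, the membrane proteins required for osteoclast precursors to fuse, read 5.40 and 2.82 with M-CSF; Dcstamp read 17.01, 16.61 and 16.69 with RANKL and Ocstamp 14.31, 14.16 and 14.48. Itgb3, the beta-3 integrin that osteoclasts use to grip bone, was at least 150.1-fold higher, and its partner Itgav 29.0-fold. The 4 lower genes were the tetraspanin Cd81 at 34.0-fold, the protease Adam8 at 6.43-fold, the inhibitory receptor Sirpa at 2.46-fold and its ligand Cd47 at 2.39-fold. Of 17 measured podosome and sealing zone genes, 7 were higher and 1 lower, with a median of 0.65. Src, the kinase needed for the ruffled border, read 3.48 against 11.27, 10.98 and 10.66, at least 14.3-fold higher, and the motor Myo10 at least 29.6-fold. General actin regulators such as Rac1, Arpc5 and Dnm2 lay within 2-fold on every RANKL array. Cbl, the ubiquitin ligase that acts with Src, read 12.83 with M-CSF and 9.96, 9.51 and 10.59 with RANKL and was the lower gene.

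Of 19 measured genes of RANK signalling and its transcription factors, 10 were higher and 2 lower, with a median of 2.0008. Jdp2, a partner of AP-1 factors, read 5.55 with M-CSF and 16.02, 16.17 and 15.86 with RANKL, at least 474-fold higher. Fos was at least 74.9-fold higher, Prdm1, a repressor of genes that hold back osteoclast formation, 20.2-fold and Nfatc1 12.1-fold. Tnfrsf11a, which encodes RANK itself, read 8.74 against 11.45, 11.23 and 11.45, 6.22-fold higher. The factors that precursors already use differed less or the other way. Spi1, the myeloid master regulator PU.1, read 18.93 against 19.63, 19.57 and 19.60, Mitf 12.08 against 11.31, 11.41 and 11.23, and neither reached 2-fold. Tfe3, of the Mitf family, was 8.86-fold lower and Tnfrsf1a, a receptor for TNF, 3.42-fold lower.

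Negative regulators of osteoclast formation lay on both sides. Of 14 measured genes, 3 were higher and 4 lower, with a median of 0.35. Nfkbia, the inhibitor of NF-kappaB, was 37.6-fold higher, Tnfaip3 27.4-fold and Rcan1, the calcineurin inhibitor, 23.8-fold. Rbpj, the Notch pathway factor, was 7.86-fold lower, the adaptor Dok2 7.18-fold and Bcl6 at least 2.58-fold. Irf8, a repressor of Nfatc1, read 7.27 with M-CSF, just above background, and 4.45, 4.35 and 4.57 with RANKL, so that its fold could be bounded only as at least 1.10. Tnfrsf11b, the decoy receptor that binds RANKL, was within background on all 4 arrays. Among 10 measured ITAM adaptors and receptors, which give the co-stimulation that osteoclasts need, 1 was higher and 3 lower. Oscar, the receptor for collagen, read 2.71 against 14.40, 14.33 and 15.001. Trem2 read 14.81 against 8.38, 8.67 and 10.14 and was 53.9-fold lower, and Fcer1g 6.10-fold lower, whereas Tyrobp, the adaptor of Trem2, read 14.98 with M-CSF and 14.31, 14.08 and 14.41 with RANKL and stayed within 2-fold. Of 7 measured genes for factors by which osteoclasts signal to other bone cells, 4 were higher and 2 lower. Efnb2, the ephrin ligand, was at least 30.1-fold higher and Sema4d, a semaphorin, 7.59-fold, whereas the chemokine Cxcl16 was 17.5-fold lower.

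**Figure D2:**
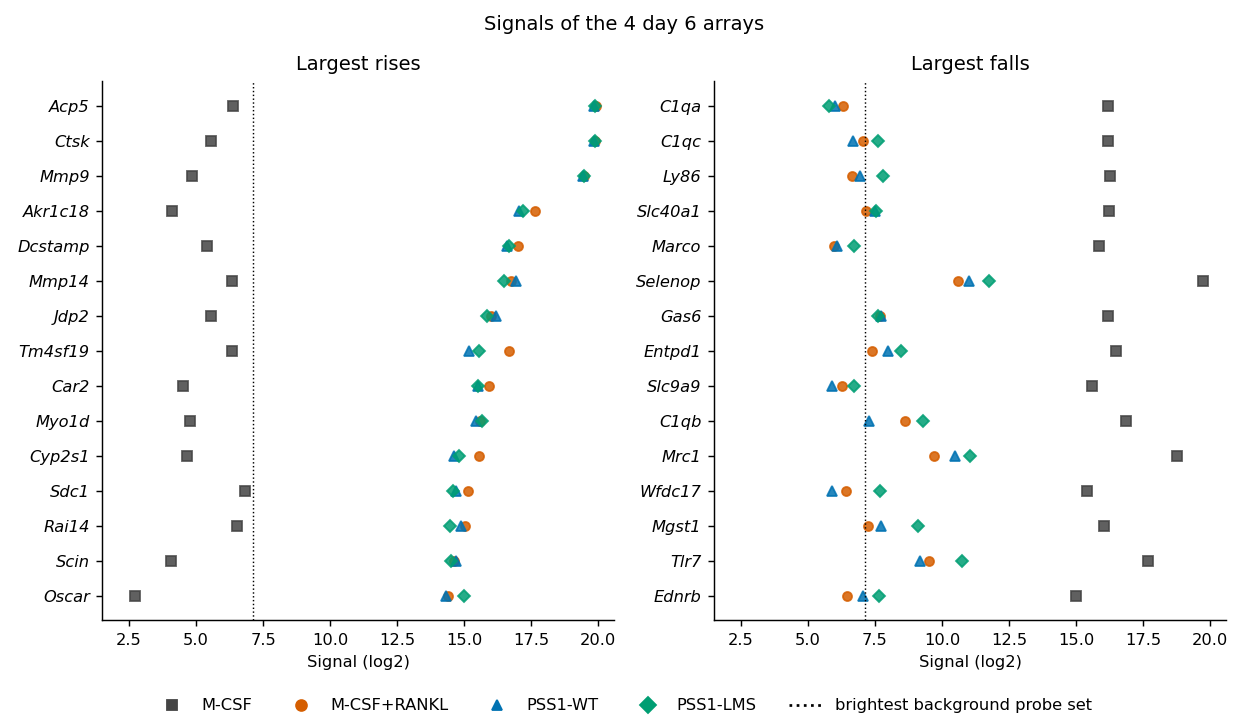
Log2 signals in the 4 day 6 arrays (1 point per array) for the 15 genes with the largest positive and the 15 with the largest negative difference after signals were raised to background; the dotted line is the brightest background probe set at 7.13. In the left panel the M-CSF point of each gene lies within background and the 3 RANKL points between 14.33 (Oscar) and 19.92 (Acp5); in the right panel the M-CSF points lie between 14.99 (Ednrb) and 19.72 (Selenop), far to the right of all RANKL points.

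Among the 15 largest positive differences were several genes outside those lists. Akr1c18, an aldo-keto reductase that inactivates progesterone, read 4.11 with M-CSF and 17.66, 17.03 and 17.18 with RANKL, at least 1145-fold higher. Tm4sf19, a tetraspan membrane protein, Myo1d, an unconventional myosin, and Scin, the actin-severing scinderin, were at least 407-fold, 346-fold and 179-fold higher. Cyp2s1, a cytochrome P450, was at least 234-fold higher, the proteoglycan Sdc1 at least 205-fold and the actin-linked Rai14 at least 203-fold. All had M-CSF signals within background.

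The macrophage programme was lower nearly throughout. Of 18 measured macrophage identity genes, 17 were lower and 0 higher, with a median difference of -5.53; Cx3cr1 and Cd163 among them were within background on all 4 arrays. Mrc1, the mannose receptor, read 18.76 with M-CSF and 9.69, 10.49 and 11.04 with RANKL, 326-fold lower. Marco, a scavenger receptor, read 15.86 against 5.97, 6.08 and 6.71, at least 426-fold lower, and Maf, a macrophage transcription factor, was at least 108-fold lower. Ly86, which pairs with Cd180, was at least 486-fold lower, whereas Cd180 read 17.41 against 17.07, 16.09 and 16.81 and was the only measured member that was not lower by the rule. Csf1r, the receptor for M-CSF, read 17.56 against 16.37, 16.44 and 16.39, 2.24-fold lower, and so was among the least changed members. Lyz2, lysozyme M, stood at 19.93, the top of the scale, with M-CSF, so its 3.93-fold difference may be understated.

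All 10 measured complement and Fc receptor genes were lower, with a median of -7.04. C1qb read 16.86 with M-CSF and 8.62, 7.29 and 9.29 with RANKL, and C1qc 16.21 against 7.04, 6.68 and 7.61. Fcgr3, an activating receptor for IgG, was 204-fold lower, and Fcgr1 at least 47.6-fold. Fcgr4 was lower by the rule with all 4 signals within background. Cfp, properdin, was the least different at 2.69-fold. Of 15 measured genes for Toll-like receptors and their signalling, 13 were lower and 0 higher, with a median of -3.96. Tlr7, which senses single-stranded RNA, read 17.69 against 9.52, 9.19 and 10.76, 233-fold lower, and Tlr8 was at least 162-fold lower. Tlr4, the receptor for lipopolysaccharide, was 9.56-fold lower, while its partner Ly96 read 17.20 against 16.15, 15.82 and 16.75 and was not. The adaptors stood between, with Myd88 2.77-fold lower and Ticam1 within 2-fold on every RANKL array. The NADPH oxidase of phagocytes was split over its subunits. Of 5 measured, the membrane subunit Cybb was 23.8-fold lower and the cytosolic Ncf1 74.5-fold lower, the cytosolic Ncf4 3.15-fold and Rac2 3.83-fold higher, and Cyba, which pairs with Cybb, differed by -0.03.

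Recognition and clearance of dying cells, which works through receptors for phosphatidylserine, was lower in most of its parts. Of 12 measured genes, 8 were lower and 2 higher, with a median of -4.27. Gas6, the bridging protein that binds phosphatidylserine, read 16.20 with M-CSF and 7.70, 7.72 and 7.61 with RANKL, 368-fold lower, and its receptor Mertk was at least 34.9-fold lower. Stab1, a receptor that binds phosphatidylserine directly, was at least 82.4-fold lower. Axl, another receptor for Gas6, was within background on all 4 arrays, from 4.28 to 5.68. The 2 higher genes were Mfge8, a bridging protein for integrins, at 8.01-fold, and Anxa1 at 3.61-fold. Of 12 measured genes for phosphatidylserine and phosphatidylethanolamine synthesis, 3 were higher and 0 lower. The higher genes were Lpcat1, 20.5-fold, which remodels phosphatidylcholine, Chpt1, 3.29-fold, and Selenoi, 2.84-fold. Ptdss1 itself read 10.33 with M-CSF and 10.36 with M-CSF+RANKL, against 18.06 in PSS1-WT and 17.50 in PSS1-LMS, the cultures that carry the insert. It was thus at nearly the same level in both cultures with no named insert and high in the other 2 arrays. Ptdss2, the second synthase, read 7.33 with M-CSF and between 7.62 and 8.20 with RANKL, within 2-fold.

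Lipid genes differed by pathway. Of 9 measured LXR targets and lipid efflux genes, 7 were lower and 1 higher, with a median of -3.41. Abca1, the cholesterol exporter, read 13.53 with M-CSF and 8.31, 8.37 and 8.36 with RANKL, 36.3-fold lower, and Mylip, which degrades the LDL receptor, was at least 28.0-fold lower. The higher gene, Nr1h3, which encodes LXR-alpha, had all 4 signals within background. Cholesterol synthesis had 10 of 18 measured genes lower and 0 higher, with a median of -1.85. Fdft1, squalene synthase, read 10.07 against 7.44, 6.51 and 6.63, and Cyp51 was 5.41-fold lower, so that genes for making cholesterol and genes for exporting it lay on the same side. Of 10 measured fatty acid synthesis genes, 5 were lower and 0 higher. The desaturases Fads1 and Fads2 were at least 36.0-fold and 21.9-fold lower, whereas Fasn, fatty acid synthase, and Acaca, the carboxylase before it, lay within 2-fold. Of 15 measured genes for fatty acid oxidation and lipid storage, 2 were higher, Acaa2 at 14.4-fold and Hadhb at 3.91-fold, and 6 lower, among them Fabp5 at 11.5-fold and Cpt1a at 2.50-fold. The median of that list, -0.02, took the other sign when the arrays were centred on their medians (0.00083) or quantile-normalised (0.039).

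Genes of respiration and the TCA cycle were higher in nearly all cases. Of 23 measured genes of the respiratory chain and ATP synthase, 21 were higher and 0 lower, with a median of 2.36. Cyc1, cytochrome c1 of complex III, read 8.05 with M-CSF and 13.08, 13.59 and 12.68 with RANKL, 33.5-fold higher, and Cycs, cytochrome c, read 12.24 against 17.01, 17.15 and 17.03. All 15 measured genes of the TCA cycle were higher, with a median of 2.45. Idh3a, a subunit of isocitrate dehydrogenase, read 10.23 against 15.80, 15.74 and 15.78, 46.5-fold higher, while its partner subunits Idh3g and Idh3b were 2.98-fold and 2.71-fold higher. Mdh2, malate dehydrogenase, was 23.7-fold higher and Pdhb, which feeds pyruvate into the cycle, 15.9-fold. Genes for mitochondrial translation followed with smaller sizes, 10 of 16 measured higher and 0 lower, with a median of 1.52. Of 9 measured regulators of mitochondrial biogenesis, 3 were higher and 0 lower, with a median of 0.73. Among them, Ppargc1b, the coactivator of mitochondrial biogenesis in osteoclasts, read 6.00 against 11.58, 11.31 and 11.54, at least 20.4-fold higher. Glycolysis did not share this pattern: of 16 measured genes, 1 was higher and 2 lower, with a median of 0.62. The higher gene of the list was Pdk1, at 8.47-fold, which encodes a kinase that inhibits pyruvate dehydrogenase and is not itself a glycolytic enzyme. Lactate dehydrogenase Ldha read 14.28 against 15.67, 14.99 and 15.42 and did not reach 2-fold in PSS1-WT.

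Transport and synthesis of amino acids were divided between genes. Slc1a5, the glutamine carrier, read 8.05 with M-CSF and 14.17, 13.81 and 13.35 with RANKL, 53.1-fold higher. Slc7a5, a carrier of large neutral amino acids, was at least 6.33-fold higher, whereas Slc7a8, of the same family, was 17.4-fold lower. In all, 4 of 10 measured carriers were higher and 2 lower. Among 12 measured genes of the Atf4 axis, 5 were higher and 2 lower. Asns, asparagine synthetase, was 15.9-fold higher, the folate enzyme Mthfd2 at least 8.15-fold and Atf4 3.57-fold, but the stress targets of Atf4 did not go with them: Trib3 and Sesn2 were within background on all 4 arrays, Ddit3 differed by -0.11 and Atf3 was at least 6.97-fold lower. Single genes of iron uptake and iron release lay on opposite sides. Tfrc, the transferrin receptor, read 12.12 with M-CSF and 17.07, 16.78 and 16.73 with RANKL, 26.8-fold higher, and the ferrireductase Steap4 was at least 32.9-fold higher. Slc40a1, the iron exporter ferroportin, read 16.22 against 7.15, 7.51 and 7.54, 453-fold lower, Hmox1, which frees iron from heme, 24.0-fold lower and the phagosomal carrier Slc11a1 18.0-fold lower. Over the whole list of 14 measured iron genes, 3 were higher and 3 lower, with a median of 0.10. The other genes of the list were not past 2-fold in all 3 arrays.

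**Figure D3:**
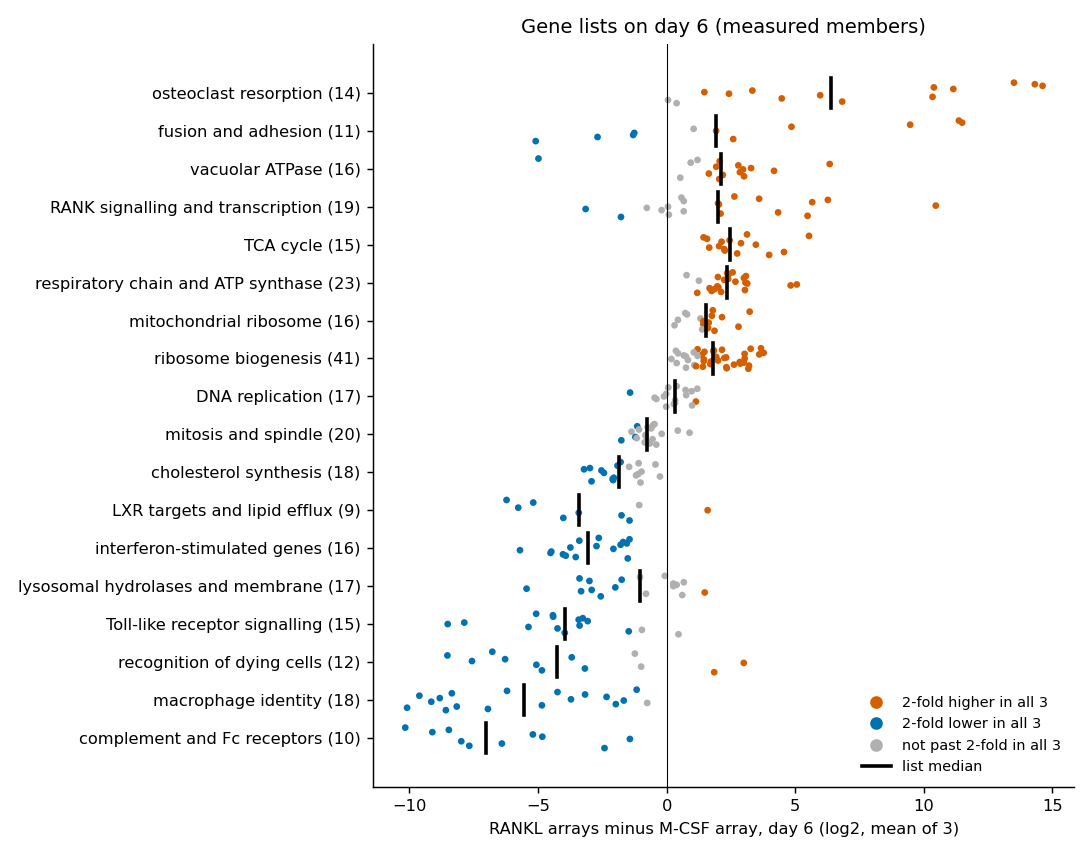
Each point is a measured gene of the named list (number of measured genes in brackets), placed by its mean log2 difference of the 3 RANKL arrays from the M-CSF array on day 6; the black bar is the list's median. The plotted lists of osteoclast function, TCA cycle and respiration have medians to the right of 0, from 1.93 to 6.40. The macrophage, complement and Toll-like receptor lists have medians to the left, from -7.04 to -3.96. Not plotted are the podosome and sealing zone list, with a median of 0.65, and the ITAM list, with a median of -0.69.

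Interferon-stimulated genes were lower with RANKL, although many of them were dim. All 16 measured members were lower by the rule, with a median of -3.06, but 8 of the 16 had all 4 signals within background. After signals were raised to background, 5 of 16 were lower and the median was -0.014. Bst2, tetherin, read 15.76 with M-CSF and 11.72, 11.96 and 11.83 with RANKL, 15.1-fold lower. Stat2 and Irf9, which carry the type I interferon signal to DNA, were at least 12.8-fold and 4.71-fold lower, and Oasl2 at least 9.65-fold. Ifit3 read 7.98 against 4.60, 4.51 and 4.66, at least 1.80-fold lower. Isg15 read 5.30 against 3.76, 3.52 and 3.55, all within background. Promoters of interferon-stimulated genes are known for a repeat of the letters GAAA, and the stretches below, from the 250 bases before the start sites, are shown because they hold it. Capitals mark every match to GAAA, any 2 bases and GAAA again or, where the match is on the opposite strand, to TTTC, any 2 bases and TTTC, and neighbouring matches overlap. Positions are those of GRCm38.p6: chr8:71537557-71537626 for Bst2 and chr4:156200845-156200914 for Isg15, both on the minus strand, and chr10:128270248-128270315 for Stat2 and chr19:34583377-34583446 for Ifit3, both on the plus strand.
Bst2: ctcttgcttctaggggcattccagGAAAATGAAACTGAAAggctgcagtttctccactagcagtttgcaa
Stat2: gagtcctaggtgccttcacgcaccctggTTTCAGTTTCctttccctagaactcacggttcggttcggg
Ifit3: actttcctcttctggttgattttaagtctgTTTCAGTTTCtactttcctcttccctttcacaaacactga
Isg15: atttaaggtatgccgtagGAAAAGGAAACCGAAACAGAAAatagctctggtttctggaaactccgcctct
This spaced GAAA repeat, searched on both strands, was in 7 of the 12 list members with a promoter sequence (58.3%) and in 3.23% of the 8485 measured genes with one. It was in 6.38% of the lower genes and 2.40% of the higher genes. The motif was thus common in a list defined by its response to interferon. Its share was larger in the lower genes than in all measured genes, although most lower genes had no match. Of the other motifs searched in the same way, the AP-1 site TGANTCA was in 6.94% of higher, 6.46% of lower and 5.68% of all measured genes, and the E-box CACGTG in 9.50%, 10.7% and 9.96%. The Nrf1 site, GCGCA and GCGC around any base, was in 9.50%, 6.46% and 9.83%, so that its share was smallest in the lower genes. The PU.1 site, GAGG followed by AAGT, was in 2.64%, 4.77% and 3.23%, and the lysosomal CLEAR element, GTCAC followed by GTGAC, in 0.331%, 0.404% and 0.625%.

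Among secreted signals and their receptors, more genes were lower than higher. Of 13 measured chemokine genes, 2 were higher and 6 lower, with a median of -1.67. For 5 of the 13 all 4 signals were within background, and with signals raised to background the median was 0.0. Ccr1, a receptor for several inflammatory chemokines, read 9.10 with M-CSF and 14.20, 13.95 and 14.23 with RANKL, 32.5-fold higher, and Ccr3 was 4.10-fold higher. Ccl6 was at least 40.7-fold lower and Cxcr4, the receptor that holds precursors in marrow, at least 9.80-fold. Ccl9, which RANKL is known to induce, read 18.99 against 19.55, 19.49 and 19.53, within 2-fold. Of 15 measured cytokine genes, 2 were higher and 8 lower. Il1rn, the antagonist of interleukin 1, read 6.58 against 14.32, 13.50 and 13.97, at least 111-fold higher. Il10ra, the receptor for interleukin 10, was at least 28.6-fold lower, Il6ra 14.2-fold and Ifngr1, a receptor for interferon-gamma, 10.6-fold.

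Genes of other marrow cells were read for what else the cultures could hold. None of 8 B cell and none of 6 adipocyte markers was measured, and their summed linear signals lay between 88.5 and 98.2 and between 68.4 and 77.3 over the 4 arrays. Of 16 neutrophil and early monocyte markers 6 were measured; 3 of these were lower and 0 higher, and the summed linear signal was 3710 with M-CSF and 454 to 833 with RANKL. S100a8 and S100a9, the most abundant neutrophil proteins, were within background on all 4 arrays, and the sum rested on Mmp8 and Csf3r, which read 11.20 and 9.96 with M-CSF. The signals of these 6 genes fell by a median of 5.28 in M-CSF and, as the mean of 3 arrays, 6.44 with RANKL from day 3 to day 6. The megakaryocyte gene Pf4 read 14.81 with M-CSF and 6.00, 6.73 and 7.21 with RANKL, while Itga2b and Gp9 of the same list were within background throughout. Cd4, the lower one of 2 measured T and NK cell genes, read 8.37 against 6.55, 6.77 and 6.81. Both measured erythroid genes and the 6 measured stromal genes had 0 higher and 0 lower. The part of other cells in the differences above was not tested.

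The same comparison on day 3, with other arrays on both sides, gave 1574 genes higher (14.9%) and 1407 lower (13.3%) of 10544 measured. In all, 909 genes were higher on both days, 60.9% of those of day 6 and 57.8% of those of day 3, and 795 were lower on both, 52.4% and 56.5%. Of the genes called on day 6, 576 higher and 700 lower ones were called in neither direction on day 3. In these genes, picked because their call changed between the days, the M-CSF signal moved more than the RANKL mean in 544 of 576 (94.4%) and 662 of 700 (94.6%). The same held for 8004 of all 10366 measured genes (77.2%). This sets a single array against a mean of 3, and averaging can reduce the change of the mean. Among the 576 higher genes the M-CSF signal was lower on day 6 than on day 3 by a median of 1.25 on the log2 scale, while the mean of the RANKL arrays differed by a signed median of 0.01 and a median absolute change of 0.19 (0.25 in the M-CSF+RANKL array alone). Among the 700 lower genes the M-CSF signal was higher by a median of 1.36 and the RANKL mean differed by a signed median of -0.10 and a median absolute change of 0.21 (0.28 in the M-CSF+RANKL array alone). Over all measured genes the median absolute change was 0.59 in the M-CSF array, 0.28 in the M-CSF+RANKL array alone and 0.21 in the mean of the 3 RANKL arrays. Each day has 1 M-CSF array, so a change of the culture with time and a difference between those 2 arrays cannot be told apart, and the difference between the days was not tested.

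Genes for making ribosomes were a group of this kind. This list was drawn up after Srm, Myc and Nop58 had been seen among the genes whose difference grew most. Of 41 measured ribosome biogenesis genes, 30 were higher and 0 lower on day 6, with a median of 1.82; on day 3, 2 were higher and 1 lower, with a median of 0.26. The M-CSF signal of these genes fell by a median of 1.83 from day 3 to day 6, and the RANKL mean differed by a signed median of 0.08. The median absolute change was 0.11 in the RANKL mean and 0.20 in the M-CSF+RANKL array alone. Nop58, which builds ribosomal RNA modifying complexes, read 7.46 with M-CSF and 10.86, 11.29 and 11.24 with RANKL on day 6, against 11.59 and 10.84, 10.87 and 10.88 on day 3. Myc, the growth regulator, read 10.33 with M-CSF and 15.14, 15.02 and 15.87 with RANKL on day 6, against 14.61 and 14.84, 15.74 and 15.92 on day 3. The 6 RANKL signals of Myc lay between 14.84 and 15.92, and the M-CSF array of day 6 stood apart from the other 7 arrays. Srm, spermidine synthase, read 7.66 with M-CSF and 13.30, 13.40 and 13.11 with RANKL on day 6, against 12.76 and 13.51, 13.55 and 13.55 on day 3. Of 16 measured polyamine and nucleotide synthesis genes, also listed after values were seen, 9 were higher and 0 lower on day 6, Srm at 49.0-fold and Uck2, a uridine kinase, at least 32.7-fold. The ribosomal proteins themselves did not go with them, with 0 of 18 measured cytosolic ribosomal protein genes higher and 0 lower, and a median of 0.39.

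Cell division genes gave another day-dependent pattern. Of 17 measured DNA replication genes, 1 was higher and 1 lower on day 6, with a median of 0.33, whereas on day 3 14 of the same genes were lower and 0 higher, with a median of -2.05. Cdt1, a licensing factor, was the higher gene at 2.21-fold, and Pcna, the sliding clamp, the lower one at 2.67-fold. Mcm4, a subunit of the replicative helicase, read 8.47 with M-CSF and 9.61, 9.99 and 9.40 with RANKL on day 6, against 11.19 and 9.44, 8.91 and 9.83 on day 3. Of 20 measured mitosis and spindle genes, 3 were lower and 0 higher on day 6, with a median of -0.75, and 19 were lower on day 3, with a median of -2.33. Nusap1, a spindle protein, was 3.39-fold lower and Ccnb2, a cyclin of mitosis, 2.20-fold; Top2a, the topoisomerase of dividing cells, read 9.66 against 8.54, 9.76 and 9.27. The M-CSF signals were lower on day 6 than on day 3 by medians of 1.90 and 1.52, and the RANKL means differed by signed medians of 0.26 and 0.29. In the M-CSF+RANKL array alone the median absolute changes were 0.45 and 0.25. The cell cycle element CHR is written TTTGAA, and these letters, searched on both strands, were in 8 of the 16 mitosis genes with a promoter sequence (50.0%) and in 13.3% of all measured genes with one.

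**Figure D4:**
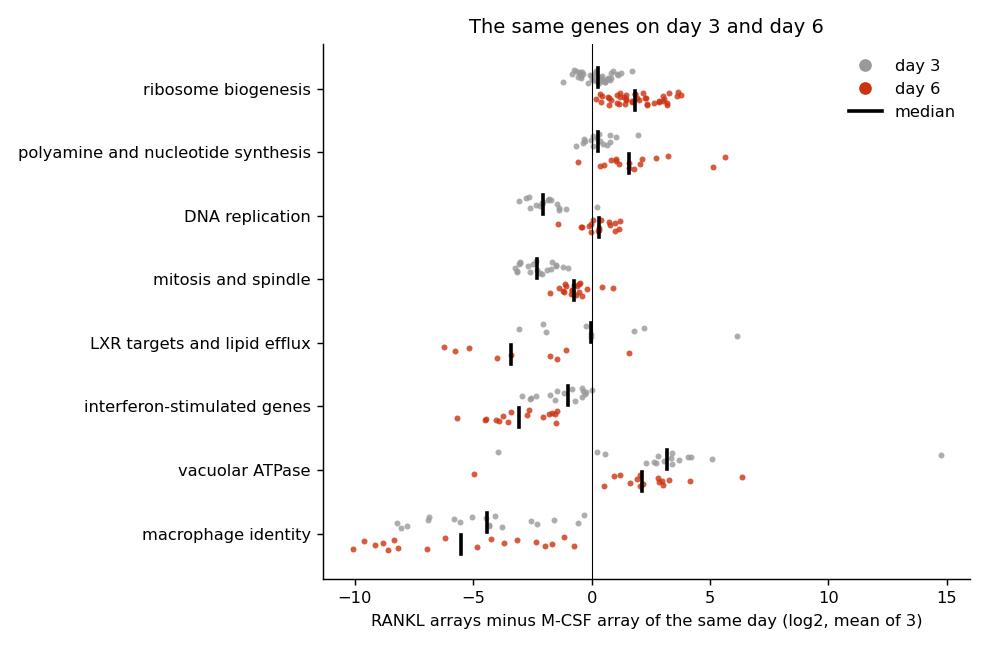
Points are measured genes of the named list, placed by the mean log2 difference of the 3 RANKL arrays from the M-CSF array of the same day, grey for day 3 and red for day 6, with black bars at the medians. The median of ribosome biogenesis moved from 0.26 to 1.82, that of DNA replication from -2.05 to 0.33 and that of LXR targets from -0.03 to -3.41, while macrophage identity lay far to the left on both days.

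In the other direction, LXR targets and interferon-stimulated genes were further below M-CSF on day 6 than on day 3. The median of the 9 LXR targets was -0.03 on day 3 and -3.41 on day 6. M-CSF signals were higher on day 6 by a median of 2.35, and RANKL means differed by a signed median of -0.17. The median absolute change was 0.47 in the RANKL mean and 0.80 in the M-CSF+RANKL array alone. Abca1 read 8.65 with M-CSF and 8.95, 7.92 and 8.34 with RANKL on day 3, so that all 8 arrays but the M-CSF array of day 6, at 13.53, lay together. Pltp, which transfers phospholipids between lipoproteins, turned over: it read 6.93 with M-CSF and 12.48, 13.08 and 13.72 with RANKL on day 3, and 17.65 against 14.19, 12.64 and 14.06 on day 6. The 16 interferon-stimulated genes measured on day 6 had a median of -0.9998 on day 3, when 7 were lower. Only 8 genes of that list reached the day 3 filter. These had a day 3 median of -1.95, with 6 lower, so the contrast between the days depends in part on dim genes. Ypel3, a growth inhibitor, Dbp, a factor of the circadian clock, and Fcgrt, the neonatal Fc receptor, were at least 73.2-fold, 37.9-fold and at least 37.4-fold lower on day 6, and lay within 2-fold of M-CSF in mean on day 3. All 14 resorption genes were higher on day 3 and 12 on day 6. Their M-CSF signals were higher on day 6 by a median of 1.0003. RANKL means differed by a signed median of -0.09 and a median absolute change of 0.23. The list medians were 5.81 on day 3 and 6.40 on day 6, although 11 of the 14 had a smaller difference on day 6. Tcirg1 differed by 4.47 on day 3 and 2.43 on day 6, and Plekhm1 by 1.73 and 0.06. The vacuolar ATPase genes had a median of 3.19 on day 3 and 2.13 on day 6. Atp6v0d2 read 4.23 in the M-CSF array of day 3, within background, and 12.55 in that of day 6.

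**Figure D5:**
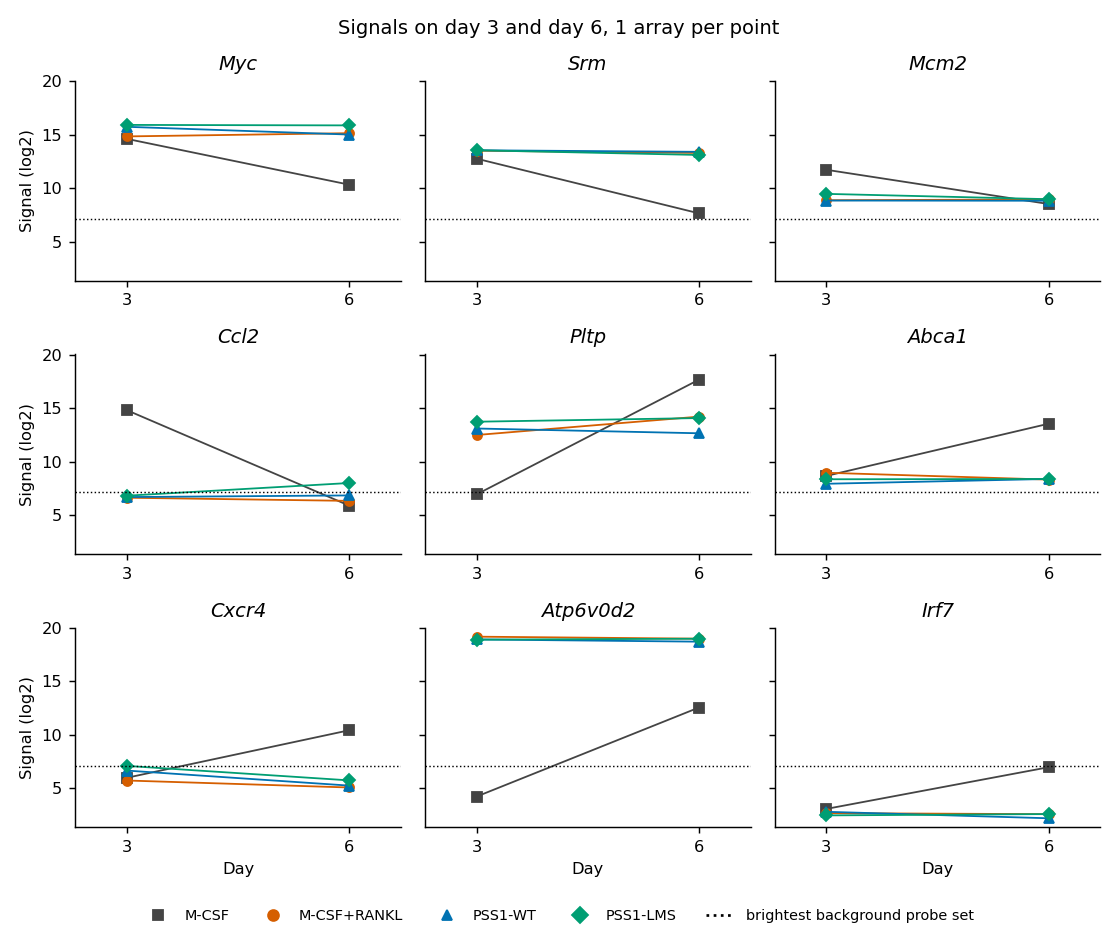
Log2 signals of 9 genes on day 3 and day 6, 1 array per point, with lines joining the arrays of the same treatment and insert. The labels do not say whether joined arrays came from the same culture. The dotted line is the day 6 background limit of 7.13. In each panel the M-CSF signal moved more between the days than the RANKL signals did, downwards for Myc, Srm, Mcm2 and Ccl2 and upwards for Pltp, Abca1, Cxcr4, Atp6v0d2 and Irf7.

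The 3 RANKL arrays lay close to each other for most genes, with a median SD of 0.25 over the measured genes. At least 2-fold differences were seen in only 1 or 2 of the 3 arrays for 1015 genes higher and 990 genes lower, and for 2 genes in opposite directions. The widest ranges belonged to Ptdss1, the gene of the insert, and to Cd36, Maz, Mt2, Ccl3 and Tmem50b. Cd36, a scavenger receptor for lipids and dying cells, read 17.77 with M-CSF and 10.03 in M-CSF+RANKL, 11.84 in PSS1-WT and 12.62 in PSS1-LMS, lower in all but by unequal amounts. Mt2, a metallothionein, read 13.41 against 17.38, 14.99 and 16.01, and Ccl3, a chemokine, 12.47 against 8.14, 8.27 and 10.35. Maz, a zinc finger factor, read 8.18 against 8.93, 10.03 and 7.57 and so had no common direction. With 1 array per culture, a difference between inserts and one between arrays cannot be told apart. At the edge of the 2-fold rule, Heatr1 was just inside at 8.31 against 9.63, 9.44 and 9.32, and Hs2st1 just outside at 8.81 against 9.96, 9.81 and 9.90; among lower genes, Phf7 was just inside and Cryz just outside.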

How the data were processed

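Bone marrow cultures were profiled on 8 Affymetrix arrays, 1 per group. The authors deposited log2 signals for 28846 features; probe summary, normalisation and software are not given in the sources used here, and that the scale is log2 was read from the values. They were used as deposited, with Python 3.11.15, pandas 2.3.3, numpy 2.4.6 and matplotlib 3.10.9. The 19572 features with 1 gene symbol, 45 of them outside the 22142 transcript clusters, stand for 19505 genes; of several features (55 genes), the one with the highest mean was used. Differences are RANKL array minus M-CSF array. The number of arrays limits the precision, and no test was run.

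The genes named are the 5 markers, the 15 largest differences in each direction with signals raised to background, the 4 largest members of each list and members with a textbook role, the 6 widest ranges among RANKL arrays, up to 6 per direction that were opposite or smaller on day 3, and those at the threshold. The 9 genes plotted by day were chosen after their values were seen. Members and lists were chosen with earlier results of these data known; the lists of ribosome biogenesis, polyamine and nucleotide synthesis and cytosolic ribosomal proteins were added after values were seen. The calling rule was run on simulated data, with noise set from the spread between the RANKL arrays. That run cannot give the error of the single M-CSF array, which is unknown. Promoters are from RefSeq (GRCm38.p6) and matched 8485 of the 10366 measured genes. Alternatives were centring, quantile normalisation, raising signals to background, other filters, another rule for several clusters, a 4-fold threshold and leaving out each RANKL array.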

Additional observations from a re-analysis of the deposited data

Results flagged for a closer look

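Some genes were at least 2-fold from M-CSF in all 3 RANKL cultures on both days, but on opposite sides. They numbered 8 higher and 22 lower on day 6. The difference between days was not tested. The 6 higher ones in which the smaller of the 2 days' differences was largest were Hells (mean log2 difference 2.01 on day 6), a chromatin remodeller, Urb2 (1.41), Ndc1 (1.63), a nuclear pore protein, Pkp4 (1.16), Uchl5 (1.37) and Fkbp5 (1.13). Fkbp5, a glucocorticoid target, read 12.39 with M-CSF and 9.25, 9.11 and 9.01 with RANKL on day 3, and 8.05 against 9.28, 9.11 and 9.14 on day 6. The 6 lower ones chosen in the same way were Pltp (-4.01), St6gal1 (-2.08), a sialyltransferase, Tns1 (-1.91), Atp13a2 (-1.96), a lysosomal pump, Pla2g7 (-2.49) and Slc29a3 (-1.83), a lysosomal nucleoside carrier. The DNA replication list had a median of 0.33 on day 6, opposite in all 3 cultures to day 3, where it was -2.05. Apart from the named genes, 2615 of the 22142 transcript clusters carried no gene symbol. Of these 717 were above background on day 6, and of the 717, 112 were at least 2-fold higher and 107 lower in all 3 RANKL arrays. Among the 10366 measured named genes, which passed a looser filter, 14.4% were higher and 14.6% lower. Whether the clusters without a symbol differ from the named genes was not tested.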

How the results depend on the processing

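No paired analysis was possible because each group is 1 array and no test was run. Centring the arrays, quantile normalisation and averaging a gene's clusters gave 1493 to 1557 genes higher and 1467 to 1517 lower, and leaving out 1 RANKL array gave 1608 to 1658 and 1616 to 1693. A 4-fold threshold left 614 higher and 705 lower. With it, the members counted were 7 higher of the vacuolar ATPase, 1 higher of the dying-cell list, 0 higher of LXR targets, 3 lower of cholesterol synthesis, 0 higher and 0 lower of DNA replication, 0 lower of mitosis, 10 lower of interferon-stimulated genes and 16 higher of ribosome biogenesis. Raising signals to background left 1087 higher and 1141 lower genes, and the medians became 4.01 for resorption, -4.55 for macrophage identity, -5.91 for complement and Fc receptors, -3.43 for Toll-like receptors, 2.24 for the TCA cycle, -0.014 for interferon-stimulated genes, of which 5 were lower, and 1.47 for ribosome biogenesis; LXR targets then had 0 higher. Keeping only genes above the brightest background probe set gave -6.57 for macrophage identity, -4.85 for dying cells, -3.83 for interferon-stimulated genes, of which 8 were lower, and 0 higher LXR targets. Without a filter, the medians were -3.69 for dying cells, -2.58 for LXR targets and -2.68 for interferon-stimulated genes. These alternatives change which genes are counted or bound the dim ones. Without PSS1-LMS, 2 DNA replication genes were higher, and without M-CSF+RANKL, 5 mitosis genes were lower. List medians near 0 took the other sign: the NADPH oxidase between -0.30 without M-CSF+RANKL and 0.16 without PSS1-LMS, 0.062 without PSS1-WT, fatty acid oxidation at 0.00083 centred, 0.039 quantile-normalised and 0.15 without PSS1-WT, the Bcl2 family between -0.11 without M-CSF+RANKL and 0.18 without PSS1-WT, the dendritic and stromal lists at -0.37 and 0.13 above background, and the megakaryocyte list at 0.029 without a filter. The cause of these was not tested. Signals within background limit what can be said of dim genes, and the M-CSF side has 1 array.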

Other observations

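Stress and survival genes were past 2-fold in few cases. Of 13 measured genes of the unfolded protein response, 0 were higher and 0 lower; Hspa5, the chaperone BiP, read 16.59 with M-CSF and 17.21, 17.01 and 17.04 with RANKL, and Xbp1 13.44 against 12.68, 12.03 and 12.43. Of 11 measured genes of the Bcl2 family, Bcl2l1, which encodes Bcl-xL, was the only one past 2-fold in all 3 arrays, at 10.66 against 5.75, 6.15 and 5.86, at least 11.5-fold lower. Mcl1, another survival factor, read 14.31 against 14.85, 15.04 and 14.75. Of 11 measured flippase and scramblase genes, 4 were lower and 0 higher, with a median of -0.97 on the log2 scale, among them the flippase Atp8a1 at 6.92-fold, whereas the scramblase Ano6 differed by 0.01.

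Lysosomal genes leaned lower, with a median of -1.03, and antioxidant genes lay on both sides. Of 17 measured lysosomal genes, 8 were lower and 1 higher: Lgmn, the protease legumain, read 18.43 against 13.12, 12.89 and 12.94, 43.6-fold lower, and Lamp2 was 10.0-fold lower, while the membrane protein Cd63 was 2.80-fold higher. Of 16 measured antioxidant genes, 3 were higher and 5 lower. Sod2, the mitochondrial superoxide dismutase, was 6.14-fold higher and Gsr, glutathione reductase, 6.54-fold; Cat, catalase, was 5.43-fold lower and Mgst1 259-fold lower.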
